A study of Mus musculus with 24 samples.

Results

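The endothelial programme was examined in kidney cells of another lineage, the descendants of cells that had Sox9 activity at injury. It comprised 38 genes of a given list, matched by symbol to a RefSeq gene table (GRCm38.p6, to which mm10 corresponds). All 38 were found among its 21887 protein-coding genes. The list held 11 receptors, 5 ligands and other secreted factors, 11 junction and surface proteins, 9 transcription factors and 2 enzymes or traffic proteins. A gene counted as having a peak in a library when at least 1 peak summit lay in its window. The narrow window took in 1000 bp on each side of either gene end, and the broad window the gene body with 10000 bp on each side.

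CUT&RUN, which releases DNA around a protein or histone mark with an antibody-tethered nuclease, had been run for Sox9 and for H3K4me3. Male mice aged 9 to 12 weeks carried Sox9IRES-CreERT2/+:R26RtdT/+ and had undergone bilateral renal ischaemia-reperfusion injury with tamoxifen given at the time of injury. Red (tdTomato-positive) kidney cells were sorted 10 days (4 replicates) or 48 h (4 replicates) later, and every pellet was divided among a Sox9, an H3K4me3 and an input aliquot. That gave 16 peak lists, 4 for each antibody and time, and the 8 inputs were not analysed here as samples. All groups shared the genotype, the injury and the tamoxifen, so no uninjured cells and no vascular cells were available for comparison. Times were read from the sample titles, since the label for cell type reads d10 throughout. The Cre sits at the Sox9 locus and marks cells by Sox9 activity at tamoxifen, together with their descendants, whatever their type. The labels name gates against debris and doublets and none against vascular cells. The profiles are bulk, so fewer cells with a peak and less binding or mark per cell cannot be told apart.

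Endothelial identity rests on receptors for vascular growth factors (Kdr, Flt1, Flt4, Tek and Tie1), on adherens and tight junction proteins, and on ETS, SoxF and GATA transcription factors that act on their enhancers. SoxF factors (Sox7, Sox17 and Sox18) recognise DNA with the same kind of HMG domain as Sox9. H3K4me3 marks promoters that are active or poised, most of all those rich in CpG dinucleotides. Most of these genes are not part of the tubule programme.

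The lists held 14793 to 85415 peaks for Sox9 at 10 days and 7706 to 26520 at 48 h, and 30936 to 88496 for H3K4me3 at 10 days and 25811 to 37208 at 48 h. Replicate 1 at 10 days had the longest list of each antibody. Of the peaks in a list, 92.5% to 97.8% had the lowest height found in it, called 1 step here, and heights lay within 0.1 step of a whole multiple of it for 99.75% or more of the peaks in each list. Whether 1 step is 1 fragment could not be read from the lists, so a counted peak may rest on as little as a single fragment. The deposited lists give no sequencing depth. Presence of a peak therefore moves with list length as well as with signal, and no interval for a single library could be given. Replicates were labelled as biological.

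With both times pooled, the 38 endothelial genes carried Sox9 peaks in shares near those of all genes of their length, and H3K4me3 peaks at gene ends in a lower share. The lower share was that of the 10-day libraries, at -7.47 points from the length-weighted value, against 0.612 points at 48 h. At gene ends, Sox9 peaks were present in 31 of 304 gene-library pairs (10.2%), against 9.98% over all genes and 10.6% over all genes weighted to the members' length deciles. H3K4me3 peaks were present in 45 of 304 pairs (14.8%), against 17.3% over all genes and 18.2% with the length weighting. In the broad window the shares were 49.3% for Sox9, against 43.9% and 50.2%, and 69.1% for H3K4me3, against 59.9% and 66.4%. The members are longer than most genes, with a median length of 23456 bp against 17169 bp, and 8 of the 38 lie in the longest decile.

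At 10 days, 4, 4, 3 and 5 of the 38 genes had a Sox9 peak at an end in replicates 1 to 4, a mean of 10.5% ± 2.15 (SD, n = 4). At 48 h the counts were 3, 5, 4 and 3, a mean of 9.87% ± 2.52 (SD, n = 4). The groups overlapped, and the difference of 0.66 points between the means became -0.22 points without replicate 4 at 10 days. The length-weighted shares of all genes were 13.1% at 10 days and 8.14% at 48 h, so the members' mean difference from them was -2.55 points at 10 days and 1.73 points at 48 h. At 48 h the members were above in 4 of 4 libraries, by 4.14, 1.22, 1.36 and 0.203 points in replicates 1 to 4. A single gene is 2.63 points, so only replicate 1 exceeded that.

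H3K4me3 peaks at an end were found in 10, 1, 9 and 4 of the 38 genes at 10 days, a mean of 15.8% ± 11.2, and in 7, 5, 5 and 4 genes at 48 h, a mean of 13.8% ± 3.31 (SD, n = 4 each). The 10-day libraries spread over a range that took in all 4 of the 48 h libraries, and the difference of 1.97 points between the means became -1.54 points without replicate 1 and -0.66 points without replicate 3 at 10 days. Against all genes weighted by length, the endothelial genes lay lower in 4 of 4 libraries at 10 days, with differences of -12.8, -10.5, -4.27 and -2.30 points. At 48 h they lay 0.612 points higher on average, with an SD of 3.85 points. Mean shares in the broad window showed no shortfall. The 10-day H3K4me3 share was 74.3% ± 14.5 for the members and 72.5% with the length weighting. The 48 h share was 63.8% ± 5.84 for the members and 60.4% with the weighting (SD, n = 4 each). By replicate, the 10-day differences in the broad window were -0.25, -4.46, 1.80 and 10.4 points.

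**Figure D1:**
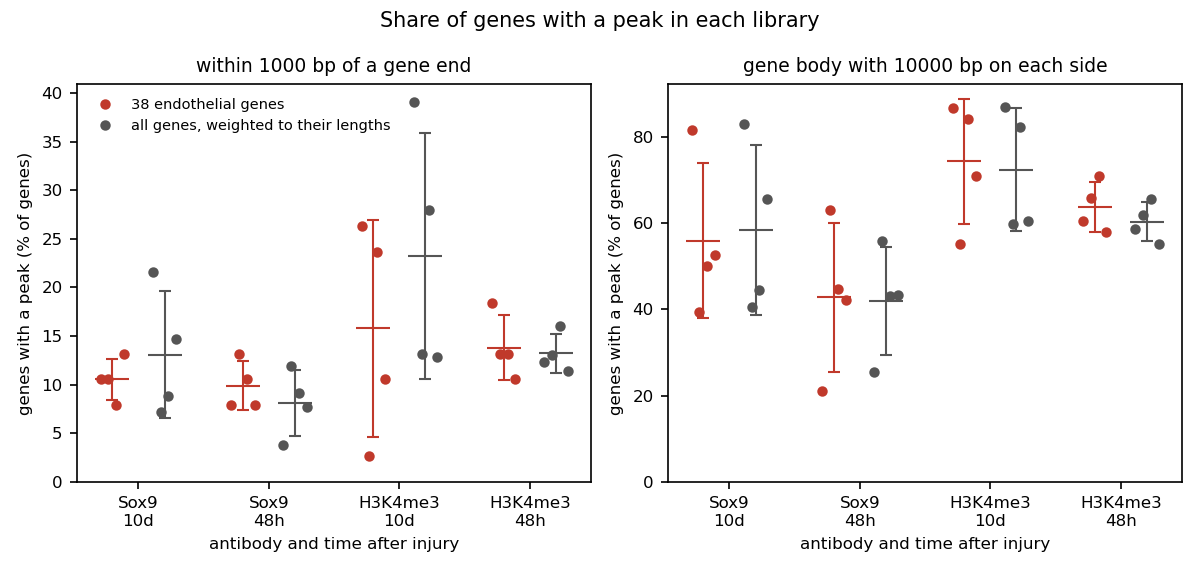
Share of genes with a peak in each library (y axis, % of genes), by antibody and time (x axis), for the window at gene ends (left panel) and the gene body with 10000 bp on each side (right panel). Red points are the 38 endothelial genes, grey points all genes weighted to the members' length deciles, horizontal bars the group mean and whiskers the SD of 4 libraries; at gene ends the H3K4me3 means at 10 days are 15.8% for the endothelial genes and 23.3% for the weighted genes.

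The share at equal list length was computed as the exact expectation when every list keeps 7706 peaks, the length of the shortest. The antibodies then differed by less than their SDs in the broad window. The expected share of endothelial genes with a peak in the broad window was 23.0% ± 4.11 for Sox9 and 23.4% ± 1.82 for H3K4me3 at 10 days, and 24.9% ± 2.67 for Sox9 and 25.9% ± 1.29 for H3K4me3 at 48 h (SD, n = 4 each). The length-weighted shares of all genes lay between 24.9% and 25.7% in these 4 groups. At gene ends the members had 3.12% for Sox9 and 2.03% for H3K4me3 at 10 days, and 5.10% for Sox9 and 3.55% for H3K4me3 at 48 h. The H3K4me3 shortfall at gene ends at 10 days was present at equal length too. Its mean difference from the weighted share was -1.57 points, with 4 of 4 libraries below that share. For H3K4me3 at 10 days in the broad window the difference was -1.85 points (SD 2.17, n = 4), with 1 library above the weighted share.

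Lists of other cell types give the scale for these shares. At gene ends, the endothelial genes had a peak in 10.2% of pairs for Sox9 and 14.8% for H3K4me3. The 14 proximal tubule genes had 7.14% for Sox9 and 18.8% for H3K4me3, and the 17 genes of injured tubule and Sox9 lineage 8.82% and 16.2%. Immune genes (16) had 4.69% and 10.9%, stromal and mural genes (14) 7.14% and 8.04%, podocyte genes (8) 10.9% and 21.9%, and genes of other nephron and duct segments (10) 8.75% and 13.8%. At 10 days the H3K4me3 share at ends differed from the length-weighted value by -7.47 points for endothelial genes. The same difference was -17.1 points for stromal, -14.0 for other segment, -10.6 for immune, -5.03 for podocyte, -4.71 for injured tubule and Sox9 lineage and -0.32 for proximal tubule genes. In the broad window over both times, the H3K4me3 share exceeded the length-weighted value by 2.67 points for endothelial genes, 11.1 for proximal tubule genes and 6.90 for genes of injured tubule and Sox9 lineage. It did so by 9.27 points for podocyte, 5.99 for stromal, 4.69 for immune and 4.08 for other segment genes, so the larger excess was not particular to tubule genes. Differences between the lists were not tested. Whether other cell types in the sort had a part in these shares was not tested.

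Receptors had Sox9 peaks at an end in 13 of 88 gene-library pairs (14.8%, against 9.98% over all genes). They had H3K4me3 peaks in 11 of 88 (12.5%, against 17.3%). Flt1, the decoy-like VEGF receptor, had a Sox9 peak at an end in replicates 3 and 4 at 10 days and in replicates 3 and 4 at 48 h, and an H3K4me3 peak in replicate 3 at 10 days alone. It was the only member with Sox9 peaks at an end in 4 lists. The Sox9 summits lay near annotated Flt1 starts, at -705 and -350 bp at 10 days and at -297 and 221 bp at 48 h. Peaks of 10-day replicate 4 and 48 h replicate 3 overlapped in 1 region, chr5:147726231-147726407, and the other pair lay elsewhere. In its broad window Flt1 held 8, 0, 4 and 7 Sox9 peaks at 10 days and 0, 3, 2 and 3 at 48 h, and 12, 5, 8 and 2 H3K4me3 peaks at 10 days and 5, 4, 5 and 3 at 48 h. The times overlapped for each antibody.

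Kdr, the main signalling receptor for VEGF, had Sox9 peaks at an end in 0 of 4 lists at 10 days and in replicates 1 and 2 at 48 h, and an H3K4me3 peak in replicate 3 at 10 days. Flt4, the receptor for VEGF-C on lymphatic endothelium, had Sox9 peaks in replicates 3 and 4 at 10 days and in 0 of 4 lists at 48 h, with an H3K4me3 peak in replicate 1 at each time. These opposite patterns rest on 2 lists each and did not pass the test (exact p = 0.429 for each, adjusted p = 1). Eng, a co-receptor for the TGF-β family, had a peak in 1 of 4 lists in every group, and its H3K4me3 peak of 2 steps in replicate 3 at 10 days lay 864 bp beyond the 3′ end. Tie1, the orphan partner of the angiopoietin receptor, had a peak at an end in 1 list, near its 3′ end. Tek, the angiopoietin receptor itself, had none at an end in 16 lists, although its broad window held 27 peaks, 9 of them in the Sox9 library of replicate 1 at 10 days.

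Adgrl4, an adhesion G protein-coupled receptor of sprouting endothelium, had Sox9 peaks at its start in replicate 4 at 10 days and replicate 1 at 48 h and no H3K4me3 peak at an end. Aplnr, the apelin receptor, had a peak at an end in 1 Sox9 and 1 H3K4me3 list, and S1pr1, the receptor of sphingosine-1-phosphate, in 2 H3K4me3 lists. Nrp1, a VEGF and semaphorin co-receptor, had a peak at an end in 1 H3K4me3 list, and Calcrl, which forms the adrenomedullin receptor with Ramp2, in none. In its broad window S1pr1 had a peak in 1 of 4 Sox9 and 4 of 4 H3K4me3 lists at 10 days. Flt4 and Adgrl4 are shown because a Sox9 summit lay inside the 300 bases of RefSeq promoter sequence (GRCm38.p6, 250 bases before the start to 50 after it). Capitals mark the bases under the peak, from replicate 4 at 10 days in each case, with summits 233 bp and 32 bp before the start.
Flt4 chr11:49609429-49609728 (+ strand): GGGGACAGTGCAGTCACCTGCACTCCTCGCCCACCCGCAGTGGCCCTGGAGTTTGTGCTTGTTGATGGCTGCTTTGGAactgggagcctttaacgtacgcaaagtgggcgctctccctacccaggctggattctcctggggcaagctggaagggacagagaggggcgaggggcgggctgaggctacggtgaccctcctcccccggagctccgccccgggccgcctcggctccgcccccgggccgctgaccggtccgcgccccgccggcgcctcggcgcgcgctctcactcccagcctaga
Adgrl4 chr3:151437632-151437931 (+ strand): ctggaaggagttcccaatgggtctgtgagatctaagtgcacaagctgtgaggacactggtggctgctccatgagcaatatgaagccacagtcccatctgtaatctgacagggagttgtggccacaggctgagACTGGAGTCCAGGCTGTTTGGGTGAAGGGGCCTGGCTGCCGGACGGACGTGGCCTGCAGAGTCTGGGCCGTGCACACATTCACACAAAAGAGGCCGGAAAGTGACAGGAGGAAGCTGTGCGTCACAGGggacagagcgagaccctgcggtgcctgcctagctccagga

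Among ligands and other secreted factors, Sox9 peaks at an end were present in 4 of 40 pairs (10%, against 9.98% over all genes). H3K4me3 peaks were present in 5 of 40 (12.5%, against 17.3%). Those were 0 of 20 pairs at 10 days and 5 of 20 at 48 h, against 22.1% and 12.5% over all genes. Vwf, the clotting factor stored in endothelial granules, had Sox9 peaks at an end in replicates 1 and 4 at 10 days, the last of 2 steps and 218 bp below the gene, and an H3K4me3 peak in replicate 2 at 48 h. It was the only member with a peak in the broad window of all 16 lists, with 63 peaks in total. That is 1 of 38 genes, against 2.83% of all genes, and Vwf lies in the longest length decile, where the mean was 13.7 lists. Egfl7, a secreted regulator of vessel assembly, had a Sox9 peak at an end in 1 list and H3K4me3 peaks in 2 lists, and Apln, the apelin ligand of tip cells, in 0 Sox9 and 2 H3K4me3 lists. Esm1, a proteoglycan of tip cells, had a peak at an end in 1 Sox9 list. Mmrn2, an extracellular matrix protein of vessels, had none.

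Junction and surface proteins had Sox9 peaks at an end in 5 of 44 pairs at 10 days and 0 of 44 at 48 h. These are 11.4% and 0%, against 12.3% and 7.64% over all genes. H3K4me3 peaks were present in 4 of 44 pairs at 10 days and 5 of 44 at 48 h. These are 9.09% and 11.4%, against 22.1% and 12.5%. Cdh5, the adherens junction cadherin of endothelium, had a peak at an end in 1 of 16 lists, H3K4me3 of replicate 1 at 10 days. That summit lay 285 bp above the higher end of the gene. Pecam1, a homophilic adhesion protein of cell contacts, had a Sox9 peak in replicate 1 at 10 days and H3K4me3 peaks in replicate 3 at 10 days and replicate 2 at 48 h. Cldn5, the tight junction claudin of brain vessels, had peaks in 1 Sox9 and 2 H3K4me3 lists, Ramp2 in 1 and 2, and Esam, an adhesion molecule of endothelial tight junctions, in 1 and 1. The H3K4me3 peak of Ramp2 in replicate 1 at 48 h had 2 steps and lay 154 bp inside the gene. Plvap, the diaphragm protein of fenestrae, had a peak at an end in 1 H3K4me3 list, and Lyve1, a hyaluronan receptor of lymphatic vessels, in 1 Sox9 list. Emcn, Icam2, Robo4 and Ptprb had none.

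The 9 transcription factors had Sox9 peaks at an end in 1 of 36 pairs at 10 days and 7 of 36 at 48 h. These are 2.78% and 19.4%, against 12.3% and 7.64% over all genes, and 4 of the 7 came from replicate 2. H3K4me3 peaks were present in 10 of 36 pairs at 10 days and 5 of 36 at 48 h. These are 27.8% and 13.9%, against 22.1% and 12.5% over all genes. The counts by role, here and for the other roles, were not tested. Gata2, a zinc finger factor of endothelial and blood progenitors, had peaks at an end in 6 of 16 lists, the most of any member. For Sox9 these were replicate 3 at 10 days and replicate 2 at 48 h, and for H3K4me3 replicates 2 and 3 at 10 days and 1 and 3 at 48 h. The H3K4me3 peaks of replicates 2 and 3 at 10 days and 3 at 48 h overlapped at chr6:88193812-88194061, with summits 76, 110 and 12 bp after the first start. The pair of Sox9 peaks lay in 1 region 413 and 499 bp after that start. Gata2 has a further start downstream, inside the gene and outside the window at its ends, and there the H3K4me3 peak of replicate 1 at 10 days reached 3 steps with its summit 26 bp before the start. Gata2 also had the most peaks per length, at 4.71 per 100 kb and list, against 0.49 for Calcrl at the other extreme.

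The sequences at both Gata2 starts are given as RefSeq promoter windows of 300 bases (GRCm38.p6), because they hold the tallest peak at a start and the start region shared by the most lists among the endothelial genes. Capitals mark the bases under the H3K4me3 peak whose summit lay inside the window, from replicate 3 at 48 h for the first and replicate 1 at 10 days for the second. They contain 32 and 29 CpG dinucleotides.
Gata2 chr6:88193641-88193940 (+ strand, first start): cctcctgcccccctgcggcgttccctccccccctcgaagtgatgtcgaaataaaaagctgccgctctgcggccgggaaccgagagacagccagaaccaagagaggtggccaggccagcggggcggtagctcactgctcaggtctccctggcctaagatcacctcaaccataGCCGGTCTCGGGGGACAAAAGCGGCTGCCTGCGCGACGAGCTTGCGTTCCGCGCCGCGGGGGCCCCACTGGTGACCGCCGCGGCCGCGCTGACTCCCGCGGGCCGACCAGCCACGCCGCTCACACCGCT
Gata2 chr6:88198414-88198713 (+ strand, second start): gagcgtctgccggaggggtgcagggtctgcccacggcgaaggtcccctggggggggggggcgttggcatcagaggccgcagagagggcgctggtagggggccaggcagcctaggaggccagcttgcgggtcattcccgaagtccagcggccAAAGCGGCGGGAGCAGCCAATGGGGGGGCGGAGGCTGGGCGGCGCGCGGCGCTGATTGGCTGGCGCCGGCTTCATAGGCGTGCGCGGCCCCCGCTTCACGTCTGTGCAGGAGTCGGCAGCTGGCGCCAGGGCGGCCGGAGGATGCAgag

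Sox17, which directs arterial fate, had H3K4me3 peaks at an end in 3 of 4 lists at 10 days and 1 of 4 at 48 h and no Sox9 peak at an end. All 5 of these peaks lay between -742 bp and 643 bp of the higher end, negative inside the gene, and those of replicate 3 at 10 days and replicate 2 at 48 h overlapped. Sox7 had a Sox9 peak in replicate 2 at 48 h and H3K4me3 peaks in replicates 1 and 4 at 10 days, and Sox18, the SoxF factor of lymphatic and vessel development, Sox9 peaks in replicates 1 and 3 at 48 h and an H3K4me3 peak in replicate 1 at 10 days. For Sox7 and Sox18 the Sox9 peaks at an end were thus all at 48 h and the H3K4me3 peaks all at 10 days, a split of 1 to 2 lists in each direction that did not pass the test (adjusted p = 1, Fisher's exact test). Erg, an ETS factor that maintains endothelial identity, had peaks in 1 Sox9 and 2 H3K4me3 lists, all 612 to 980 bp inside the gene from its start. Tal1, a bHLH factor of blood and vessel progenitors, had a Sox9 peak in replicate 3 at 48 h and H3K4me3 peaks in replicate 1 at each time, of which the 10-day one had 2 steps. Ets1 had a single Sox9 peak at an end. Fli1, the ETS relative of Erg, and Prox1, the factor of lymphatic identity, had none.

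Ehd3, a membrane traffic protein enriched in glomerular endothelium, had H3K4me3 peaks at an end in 2 of 4 lists at 10 days and 2 of 4 at 48 h and Sox9 peaks in 0 of 8. Those at 48 h, from replicates 1 and 3, were at the start, with summits 78 bp before and 17 bp after it. At 10 days, replicate 3 had a summit 296 bp after the start, and both peaks of replicate 1 lay at the other end of the gene. Nos3, the endothelial nitric oxide synthase, had a peak at an end in 1 Sox9 and 1 H3K4me3 list. The Ehd3 promoter is shown because 2 lists had a summit inside it, the most of any member in the table, and capitals mark the bases under those peaks.
Ehd3 chr17:73804591-73804890 (+ strand): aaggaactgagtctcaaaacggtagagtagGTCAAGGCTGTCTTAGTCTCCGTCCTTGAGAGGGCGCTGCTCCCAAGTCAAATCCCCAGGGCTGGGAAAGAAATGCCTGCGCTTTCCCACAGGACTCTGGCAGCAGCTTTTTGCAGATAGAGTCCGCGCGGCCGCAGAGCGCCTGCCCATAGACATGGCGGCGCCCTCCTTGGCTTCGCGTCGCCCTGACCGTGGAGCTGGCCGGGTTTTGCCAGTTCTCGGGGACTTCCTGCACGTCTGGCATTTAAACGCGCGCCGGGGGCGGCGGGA

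**Figure D2:**
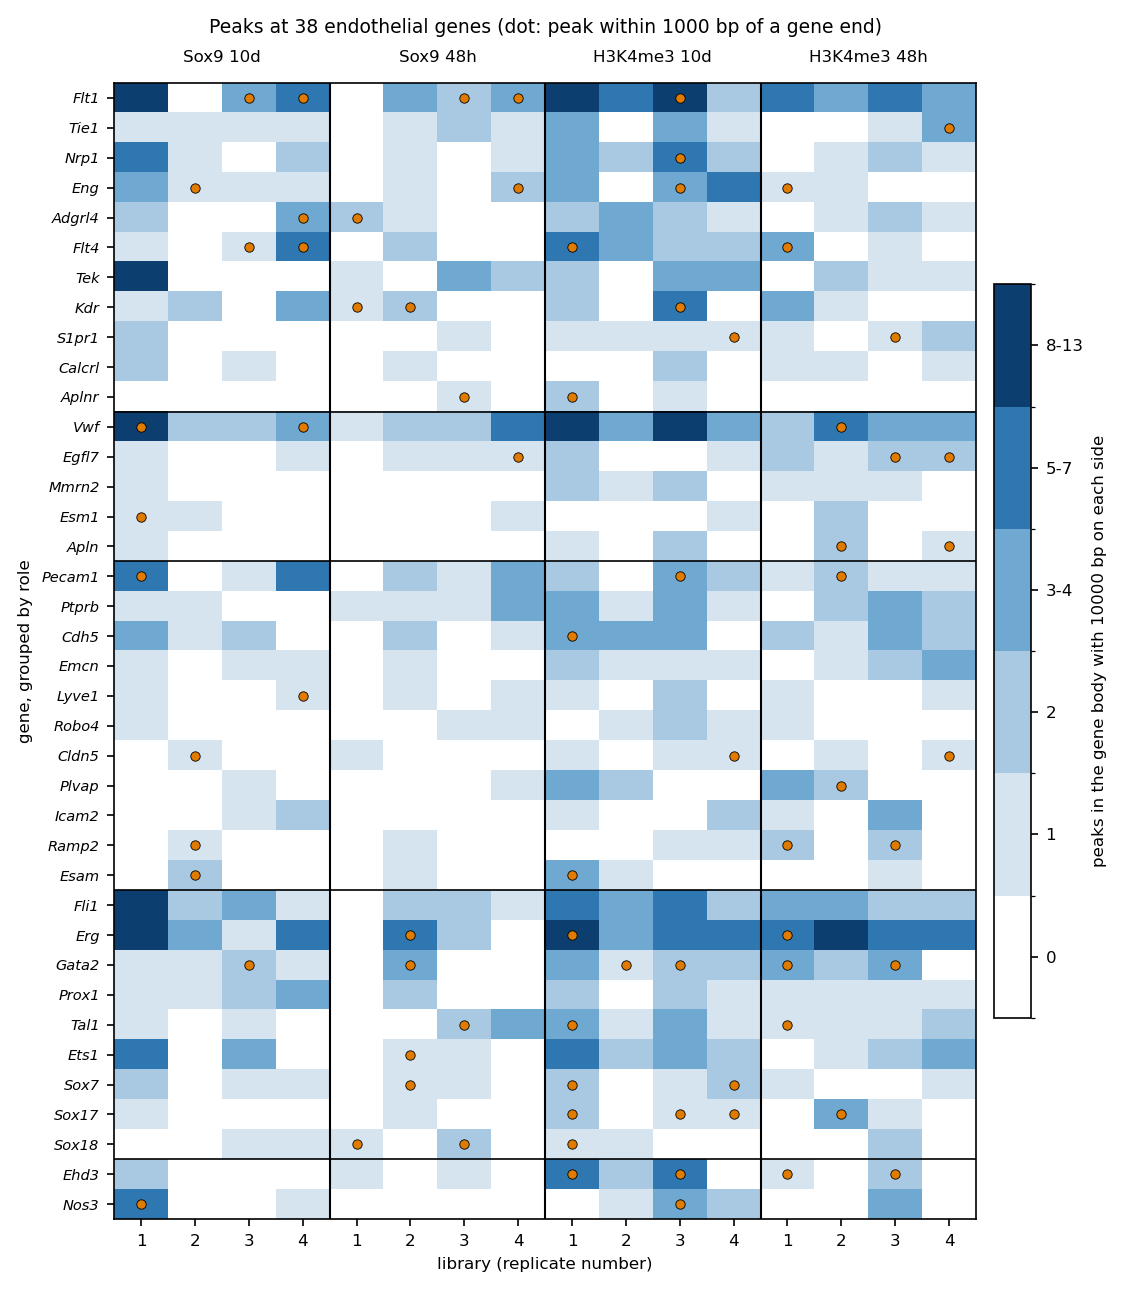
Peaks of each endothelial gene (rows, grouped by role from receptors at the top, secreted factors, junction and surface proteins, transcription factors, to enzymes and traffic) in each library (columns, replicate number within antibody and time). Shading gives the number of peaks in the gene body with 10000 bp on each side and dots mark a peak within 1000 bp of a gene end; Gata2 has the most lists with a dot, 6 of 16, and Vwf is shaded in all 16.

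No endothelial gene passed the test between groups after adjustment, and neither did any other gene. Between 10 days and 48 h, 0 of 21887 genes (0% of all genes) passed at an adjusted p of 0.05 for Sox9 or for H3K4me3 in either window by the two-sided Fisher's exact test, nor did any between Sox9 and H3K4me3 within a time. The smallest p that 4 libraries against 4 allow is 0.0286 in this exact test, reached by 4 of 4 against 0 of 4, and at least 12507 genes would have to show that pattern before any could pass the adjustment. No gene could therefore pass at the numbers seen here (lowest adjusted p = 1, exact test), and a count of 0 says nothing about whether groups differ. At an unadjusted p under 0.05, the genes with a peak at an end numbered 5 for Sox9 and 52 for H3K4me3 between the times, and 59 at 10 days and 13 at 48 h between the antibodies, and 0 of them were members. In the broad window they numbered 150, 131, 88 and 199 in the same order, with 0 members. The lowest exact p of any member was 0.143.

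The pattern of 4 of 4 against 0 of 4 was rare in all genes too. For Sox9 at gene ends it was shown in favour of 10 days by 0.0183% of genes and of 48 h by 0.00457%, and in the broad window by 0.667% and 0.0183%. For H3K4me3 the shares were 0.224% and 0.0137% at gene ends and 0.576% and 0.0228% in the broad window. Between antibodies at 10 days, Sox9 was favoured in 0.00914% and H3K4me3 in 0.26% of genes at ends, and in 0.0137% and 0.388% in the broad window. At 48 h the shares were 0.00457% and 0.0548% at ends and 0.0411% and 0.868% in the broad window. The members' count of 0 lies near these shares.

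Differences of at least 3 libraries were described next. Sox9 peaks in the broad window were present in 4 of 4 lists at 10 days and 1 of 4 at 48 h for Gata2 and for Prox1, which is 2 of 38 genes, against 5.68% of all genes with that direction and size. In favour of 48 h it was 0 members, against 0.439% of all genes. The single 48 h list with peaks was replicate 2 for each gene, the longest of its group. At gene ends 0 members had such a difference for Sox9 (0.621% of all genes in favour of 10 days, 0.16% of 48 h). H3K4me3 gave 0 members between times at ends (2.44% in favour of 10 days, 0.21% of 48 h) and 0 in the broad window (4.87% and 0.407%).

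Between antibodies, Sox17 was the only member with such a difference at gene ends, with 0 of 4 Sox9 and 3 of 4 H3K4me3 lists at 10 days (exact p = 0.143, adjusted p = 1), against 2.47% of all genes. In the broad window H3K4me3 exceeded Sox9 by at least 3 lists for S1pr1 at 10 days (1 member, against 4.49% of all genes) and for Mmrn2 and Prox1 at 48 h (2 members, against 7.43%). At 48 h, 0 members showed it at ends (0.146% of all genes in favour of Sox9, 0.914% of H3K4me3). In favour of Sox9 there were 0 members at 10 days in either window (0.16% and 0.338% of all genes) and 0 in the broad window at 48 h (0.507%). The members' counts lie near the shares of all genes.

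Heights at the endothelial genes were low. Of 311 Sox9 peaks in their broad windows, 6 (1.93%) had 2 steps and none more, against 3.84% with 2 or more over the windows of all genes. Of 509 H3K4me3 peaks, 21 (4.13%) had 2 or 3 steps, against 6.31%. Peaks were narrow, with a median width of 134 bp for Sox9 and 137 bp for H3K4me3. At a gene end, peaks above 1 step were those of Vwf for Sox9 and of Eng, Ramp2 and Tal1 for H3K4me3, each in 1 list.

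Positions were seldom shared between libraries, at the members and over the genome. Merging the lists of an antibody gave 299 Sox9 regions at the members, of which 96.0% came from 1 list, against 96.7% over the genome. In 3 or more lists there were 0, against 0.496% over the genome. H3K4me3 gave 477 regions, 94.3% from 1 list, against 94.8%. Its 3 regions in 3 or more lists (0.629%, against 0.983% over the genome) lay in Flt1, Gata2 and Plvap. Regions in 3 lists that included both antibodies lay in the broad windows of Sox17, Pecam1, Erg, Tal1, Tie1 and Nos3. Those of Pecam1 and Nos3 were outside the gene, with midpoints 949 and 3751 bp above the higher end. Tal1 had a region in 4 lists at chr4:115063250-115063638. With both antibodies merged, 10 of 740 regions at the members (1.35%) came from 3 or more lists, against 1.60% over the genome.

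The most widely shared region at an endothelial gene was chr5:147611436-147611670, inside Flt1 and about 114 kb downstream of its start. It was present in 5 of 8 H3K4me3 lists, replicates 1 and 4 at 10 days and 1, 2 and 4 at 48 h, and in the Sox9 list of replicate 4 at 10 days. Its peaks had 2 steps in the Sox9 list and in H3K4me3 replicate 1 at 10 days, 3 steps in H3K4me3 replicates 1 and 2 at 48 h, and 1 step in replicate 4 at each time. The authors' fold was low for such heights. Within each list, between 0.13% and 12.6% of the peaks of the same height had a lower fold. Since the fold is antibody pileup over local background, a low fold at a given height means a high background at that place. The tables used here do not say whether the region is exonic.

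Sox9 and H3K4me3 rarely met in a pellet. Of the 311 Sox9 peaks, 5 (1.61%) overlapped an H3K4me3 peak of the same pellet, against 2.67% of all Sox9 peaks. They lay in the broad windows of Pecam1, Sox17, Erg, Flt1 and Tal1, 1 each. Both antibodies had a peak at an end of the same gene in the same pellet in 3 of 304 pairs (0.987%), for Flt1, Egfl7 and Gata2, against 2.81% of pairs over all genes.

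Starts were known from the RefSeq promoter table for 20 of the 38 genes and 17492 genes in all. Within 1000 bp of a start, the 20 genes had 17 Sox9 summits over 8 lists, a density per kb 4.14 times that beyond 1000 bp and within 10 kb, against 2.87 times over all genes. They had 19 H3K4me3 summits, 2.19 times the density beyond, against 3.55 times. The shares that follow count a gene with a peak within 1000 bp of any of its known starts. For the members that gave 18 of 160 gene-library pairs for Sox9 and 25 of 160 for H3K4me3. The summit counts above are lower, so they took in fewer starts and cannot be set beside the shares. Per library, such a Sox9 peak was present in 11.3% ± 4.79 of the 20 genes at 10 days and 11.3% ± 2.50 at 48 h (SD, n = 4 each), against 9.99% and 6.53% of all genes. An H3K4me3 peak was present in 16.3% ± 10.3 at 10 days and 15.0% ± 7.07 at 48 h, against 19.9% and 10.8%. With so few summits, 1 peak moves a ratio by several percent, and the individual bins in the plot of summits around starts hold few counts.

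**Figure D3:**
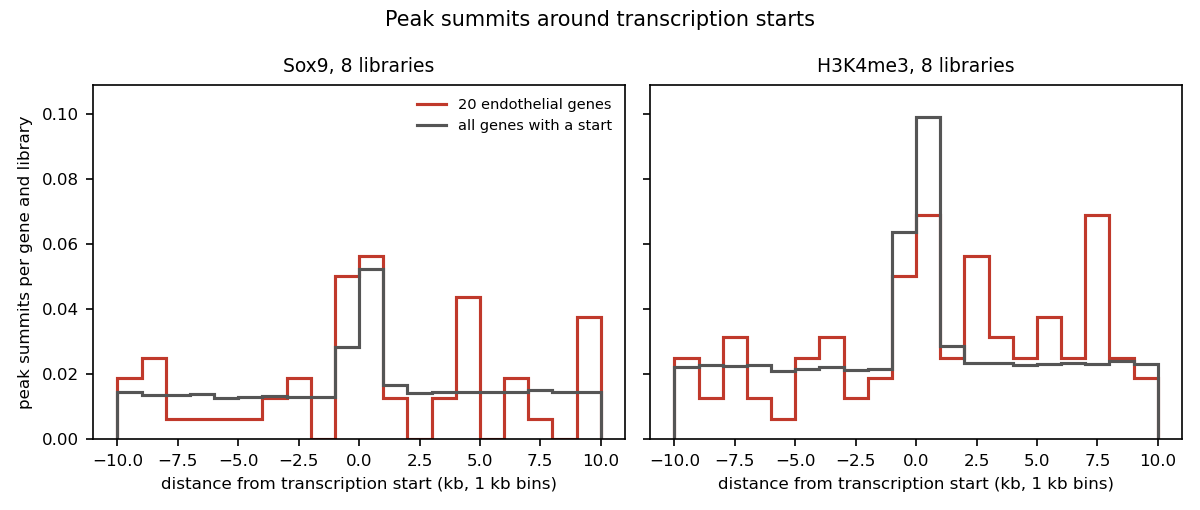
Peak summits per gene and library (y axis) by distance from the transcription start in 1 kb bins (x axis, kb, downstream positive), for Sox9 (left) and H3K4me3 (right). Red is the 20 endothelial genes with a known start and grey all 17492 genes; the grey H3K4me3 line is higher at the start than the red, whose 19 summits within 1000 bp make single bins uneven.

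Over all genes, the share with a peak rose with the CpG content of the promoter. The members' shares stood in the same order, but rest on 5 to 8 genes per tercile. The members' median observed over expected CpG ratio was 0.48, against 0.58 over all promoters, and 7, 8 and 5 of the 20 fell in the lowest, middle and highest tercile of all genes. In these terciles the members had an H3K4me3 peak at the start in 8.93%, 12.5% and 30.0% of pairs, against 5.71%, 16% and 24.4% over all genes. For Sox9 the members had 7.14%, 9.38% and 20.0%, against 3.64%, 8.55% and 12.6%. Single genes carried much of the members' shares. Gata2 gave 6 of the 12 H3K4me3 pairs and Flt1 4 of the 8 Sox9 pairs in the highest tercile, where Prox1 had none. Egfl7 gave 4 of the 5 H3K4me3 pairs in the lowest. The ratio was that of 1 promoter per gene, while a peak counted at any known start. The H3K4me3 share of the members at the start, 16.3% at 10 days and 15.0% at 48 h, stood beside 18.8% and 10.2% for all genes weighted to the members' terciles.

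Among motifs sought on both strands of the 300 bases, the FOX and ETS composite AACAGGAA was found in 3 of 20 member promoters (15%), against 2.34% of all 17492. It contains the ETS word ACAGGAA, found in 5 of 20 (25%), against 7.84%. The other ETS word CCGGAAG was found in 0 of 20, against 11.9%. The Sox words ACAAAG and ACAATG were found in 3 (15%) and 1 (5%), against 16.7% and 11.4%, the GATA words AGATAAG and TGATAAG in 1 (5%) and 0, against 2.64% and 2.25%, and TATAAA in 2 (10%), against 13.3%. None of these words was found in the 5 printed promoters, which says only that the letters are not in those windows. The composite is known from endothelial enhancers, and the 60 bases around each match (RefSeq, GRCm38.p6) are shown with the match in capitals. They were chosen after the values were seen. The first bases of the matches lie 92, 69 and 173 bp before the start, and in Emcn the match is on the opposite strand.
Egfl7 chr2:26580965-26581024 (+ strand): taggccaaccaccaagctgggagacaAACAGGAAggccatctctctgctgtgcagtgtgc
Calcrl chr2:84425302-84425361 (- strand): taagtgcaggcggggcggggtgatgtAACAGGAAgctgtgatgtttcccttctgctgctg
Emcn chr3:137340879-137340938 (+ strand): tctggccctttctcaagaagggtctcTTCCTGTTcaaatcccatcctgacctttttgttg
Egfl7 had a Sox9 and an H3K4me3 peak near this start in replicate 4 at 48 h, with summits at -558 and -336 bp, and Calcrl and Emcn had no peak at an end in 16 lists.

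Gene length went with the number of lists that had a peak in the broad window. The members ranged between 3 lists for Aplnr and 16 for Vwf, with a median of 10 against 8 over all genes. Over all genes the mean was 3.50 lists of 16 in the shortest length decile and 13.7 in the longest. Erg, the longest member at 227432 bp, held the most peaks, 84 summed over the 16 lists, followed by Flt1 with 71. Gata2, Tal1 and Tie1 had 12 lists each, above the mean of their deciles, and Calcrl had 7, below its own. Peaks per length of window were set against those of all genes, without matching for length. The ratio was 1.08 ± 0.151 for Sox9 at 10 days and 1.09 ± 0.193 at 48 h. For H3K4me3 it was 1.03 ± 0.0833 at 10 days and 1.16 ± 0.0367 at 48 h (SD, n = 4 each). The H3K4me3 ratio at 48 h was above 1 in each library, between 1.13 and 1.21.

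**Figure D4:**
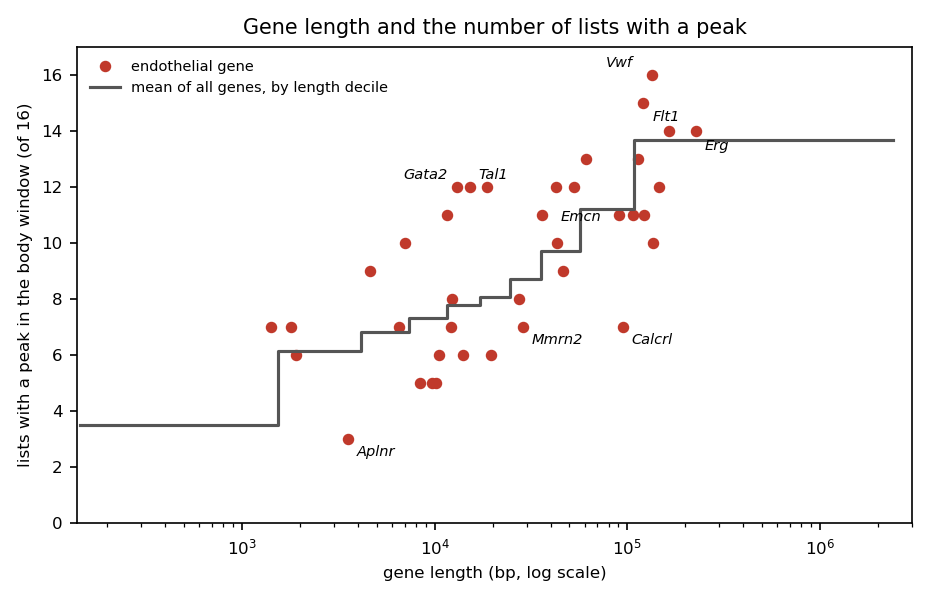
Lists with a peak in the gene body with 10000 bp on each side (y axis, of 16) by gene length (x axis, bp, log scale). Red points are the 38 endothelial genes and the grey line is the mean of all genes in each length decile, which runs between 3.50 and 13.7 lists; Gata2 and Tal1 lie above the line and Calcrl and Aplnr below it.

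Every member had a peak in the broad window of at least 3 lists. At gene ends, 21 members had a Sox9 peak in at least 1 list (55.3%, against 51.5% of all genes). An H3K4me3 peak was present for 25 (65.8%, against 68.3%), and either for 29 (76.3%, against 78.5%). With the length weighting, the shares of all genes were 54.1%, 71.3% and 81.6%, so the members' counts lie near them. The 9 with none were Tek, Fli1, Emcn, Mmrn2, Icam2, Robo4, Ptprb, Calcrl and Prox1. The median member had a peak at an end in 2 of 16 lists, as did the median gene. For 8 members another gene ends within 1000 bp of an end (Tek with Eqtn, Egfl7 with Agpat2, Eng with Fpgs, Esam with Vsig2, Nos3 with Atg9b, Icam2 with Prr29, Mmrn2 with Sncg, and Ptprb with Ptprr), and a peak there cannot be assigned to a gene.

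The 38 genes were set beside 40 other genes of vascular signalling, which include VEGF and angiopoietin ligands, Notch and BMP components and flow-responsive factors. At gene ends the shares for Sox9 were 10.2% of pairs for the 38 genes and 14.1% for the 40. For H3K4me3 they were 14.8% for the 38 and 21.9% for the 40. At 10 days the H3K4me3 share was 15.8% ± 11.2 for the 38 and 30.6% ± 18.5 for the 40, and at 48 h 13.8% ± 3.31 for the 38 and 13.1% ± 6.25 for the 40 (SD, n = 4 each). Against all genes weighted by length, the H3K4me3 difference of the 40 at ends was 7.61 points at 10 days and 0.0232 at 48 h. For the 38 it was -7.47 and 0.612 points. At 10 days the 40 thus lay above their weighted share and the 38 below. For Sox9 the 40 differed by -0.273 points at 10 days and 7.67 at 48 h. In the broad window over both times, the 40 had 72.5% for H3K4me3, against 59.5% weighted, and 48.4% for Sox9, against 43.4%. These differences were not tested. Of the 40, 0 passed the test in any comparison. Those with a peak at an end in the most lists were Adm, the gene of the vasodilator peptide adrenomedullin, Foxc1 and Foxc2, forkhead factors of vessel and kidney development, Smad7, an inhibitor of TGF-β signalling, and Vegfa, the VEGF ligand made by tubule cells and podocytes, with 5 of 16 lists each. Several of these genes are expressed in epithelium too, so the list is not specific to vessels.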

How the data were processed

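Sox9 and H3K4me3 were mapped by CUT&RUN in sorted Sox9-lineage kidney cells, in 16 libraries (4 per antibody and time). The submitters' processing notes name Partek 10, the aligners Bowtie and Bowtie2, the caller MACS3 and the build mm10. The peak names in the files show 1 call per library with the matching input. Read filters, scaling and the peak threshold are not given in the sources used here, and the depth of each library is unknown, so precision rests on the 4 replicates.

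The deposited score was not used. The fold (a ratio of pileup over local background) and the −log10 p-value and q-value are the authors' values and served only within a list. Height in steps was solved from fold and p-value, assuming 1 added to pileup and background and a Poisson tail, and was within 0.1 of a whole step for 99.75% or more of the peaks in every list. The deposited summit offset gave each summit.

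Summits on the autosomes, X and Y were assigned to windows around 21887 genes. Each gene was tested by two-sided Fisher's exact test on 4 against 4 libraries, with Benjamini-Hochberg adjustment over all genes. Between antibodies this test ignores that libraries share a pellet, which only the replicate block below takes into account. Shares of the list have no test. Length weighting is the mean over all genes of each member's length decile. Alternatives were a 3000 bp window, starts alone, no flank, −log10 q of at least 5, 2 or more steps, equal list lengths, a replicate block and leaving out libraries. The scripts, tested on simulated data, ran in Python 3.11.15 with pandas 2.3.3, NumPy 2.4.6, Matplotlib 3.10.9 and SciPy 1.17.1.

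Named were 12 core genes, the 8 genes with an end peak in the most lists, those differing by at least 3 libraries and those with 2 or more steps at an end. Other genes are given by counts or briefly. Members and lists were chosen with earlier results of these data known. Sox9 and H3K4me3 libraries of the same time and number share a pellet, per the labels. Correlations of such pairs after subtracting each group's mean, over presence at ends of all genes, spanned -0.0062 to 0.0195 (10 days) and -0.00079 to 0.00483 (48 h), so the pairing rests on the labels.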

Additional observations from a re-analysis of the deposited data

Results flagged for a closer look

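In the Sox9 library of replicate 4 at 48 h, 15% of the 20 endothelial genes with a known start (3 genes) had a peak within 1000 bp of any of their starts. The other 3 libraries of that group had 10% (2 genes) each, so this library stood apart from libraries that were identical, by 1 gene. Its gap to the others was the whole range of the group. Of 32 groups of 4 libraries checked, this was 1. The limit for a flag presumes continuous values. With 3 equal libraries any difference of 1 gene is flagged, so no rate by chance can be given for it.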

How the results depend on the processing

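The share of endothelial genes with a peak depended on window width, list length and peak height, given here as differences of group means in percentage points. With 3000 bp around gene ends, the difference of 10 days minus 48 h for Sox9 was 3.95 (0.66 with 1000 bp), and Sox9 minus H3K4me3 was -14.5 at 10 days and -13.2 at 48 h (-5.26 and -3.95 with 1000 bp). With equal list lengths, 10 days minus 48 h changed sign throughout. For Sox9 it was -1.98 at ends and -1.94 in the broad window (0.66 and 13.2 with full lists), and for H3K4me3 -1.52 and -2.44 (1.97 and 10.5). Sox9 minus H3K4me3 was then -0.47 at 10 days and -0.96 at 48 h in the broad window (-18.4 and -21.1 with full lists) and turned to 1.09 at 10 days and 1.55 at 48 h at ends. Full lists differ in length, and equal length removes that by construction. With peaks of 2 or more steps, Sox9 minus H3K4me3 was -1.97 at 10 days and -5.92 at 48 h in the broad window and -0.66 at ends at 48 h. The cause was not tested for window or height. In all, 25 of these values and the 64 with 1 library left out moved by less than 1 SD, which does not keep a sign from changing. With 1 library left out, the difference ranged between -0.22 and 1.75 for Sox9 and between -1.54 and 6.36 for H3K4me3 at ends between times. Of single genes, 244 values moved by less than 1 SD and 24 by more, and none of 608 did with 1 library left out. The count of genes that pass was 0 under every alternative run, which groups of this size fix in advance and which shows no stability, and 0 to 519 genes had an unadjusted p under 0.05. With the replicate block it was also 0 in all 8 comparisons, where 4 pairs allow no p below 0.125, so it could change no call. Numbers link 10-day and 48 h libraries by number only, and 0 of 4 Sox9 and 1 of 4 H3K4me3 libraries correlated best with their own number at gene ends. Depth is unknown, and 4 libraries against 4 reach an exact p of 0.0286 at best.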
